A study of Mus musculus with 23 samples.

Results

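The mouse zinc finger genes named Zfp9 plus 2 further digits, together with Zfp69, were chosen by their symbols. The rule used no expression value, but earlier results of these data were known. The gene table listed 34 such zinc finger genes among 24716 genes. All 34 had enough reads to be tested, as had 20189 genes in all. They were followed in RNA of whole ovaries from wild-type female mice of 3 inbred strains: NZO/HlLtJ, a model of inherited obesity and diabetes, CAST/EiJ, a wild-derived castaneus strain, and C57BL/6J, the common laboratory strain. Each strain was given, from 6 weeks of age, either a high fat, high sugar diet (44% fat with fiber) or a control diet (10% fat with fiber), and ovaries were taken at 15 weeks. There were 4 libraries of each strain on each diet, except 3 of C57BL/6J on 10% fat, which made 23. The labels do not say whether each library came from a separate animal.

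Most genes with these numbers encode proteins that carry a row of C2H2 zinc fingers, each of which contacts a few bases of DNA, and many also carry a KRAB domain. The KRAB domain recruits the co-repressor Trim28, which brings the histone methyltransferase Setdb1 and forms heterochromatin, and in mouse embryonic cells this silences endogenous retroviruses and other transposable elements. The family expands by local duplication, lies in clusters, and differs between mouse strains in copy number and sequence. Few of these genes have a known target. In mouse embryonic stem cells Zfp932 and its close relative Gm15446 repress families of endogenous retroviruses, and Zfp69 was identified as a diabetes candidate gene in crosses of NZO mice, with a transcript that a retroviral insertion cuts short in C57BL/6J.

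The 34 genes lay on 12 chromosomes, with 10 on chromosome 17, 5 each on chromosomes 7 and 8, 3 on chromosome 13, 2 each on chromosomes 2, 4 and 5 and 1 each on chromosomes 6, 9, 10, 14 and 19. Neighbours within 1 Mb of each other were taken as a cluster. The largest cluster held 7 genes over 1300 kb of chromosome 17 (GRCm38, 21567046 to 22867134): in order Zfp948, Zfp942, Zfp943, Zfp947, Zfp944, Zfp946 and Zfp945. A second held Zfp930, Zfp964 and Zfp963 within 524 kb of chromosome 8 (69226343 to 69749970), and Zfp935 and Zfp934 formed a pair 66 kb long on chromosome 13 (62454323 to 62520544). The other 22 had no member within 1 Mb, and a limit of 2 Mb gave the same clusters. Zinc fingers were counted as matches to a C2H2 spacing pattern in the longest annotated coding sequence, so fingers of another spacing are missed. Such matches stood in 31 of the 34, with a median of 10.5 over all 34 and a maximum of 18 in Zfp945. None was found in Zfp935, Zfp957 and Zfp939, of which Zfp939 is annotated as a transcribed pseudogene and the other 33 genes as protein coding.

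RefSeq promoter windows, 250 bases before to 50 bases after the annotated start on GRCm38.p6, matched 31 of the 34 genes (all but Zfp930, Zfp934 and Zfp960). The RefSeq start of Zfp936 lies 63361 bases from the gene start in the deposited annotation. The next farthest, that of Zfp947, lies 213 bases away. The Zfp936 window is kept in the shares below. Windows are shown for 2 sets of genes that share a run of bases close to the start. These runs were chosen after the windows had been read, and a match of letters is a description, not a binding site. The first run, CCAATCAG, includes the CCAAT box, a common element of vertebrate promoters, and stood in 12 of the 31 windows (38.7%) on the coding strand or its reverse, against 4.1% of all 32851 windows. Its carriers were Zfp937, Zfp931, Zfp951, Zfp932, Zfp941, Zfp958, Zfp964, Zfp963, Zfp961, Zfp938, Zfp935 and Zfp950. Capitals mark it in 3 of them, which lie on different chromosomes: Zfp932 (chr5:109996277-109996576, plus strand), Zfp961 (chr8:71950816-71951115, plus strand) and Zfp950 (chr19:61140791-61141090, minus strand).
Zfp932: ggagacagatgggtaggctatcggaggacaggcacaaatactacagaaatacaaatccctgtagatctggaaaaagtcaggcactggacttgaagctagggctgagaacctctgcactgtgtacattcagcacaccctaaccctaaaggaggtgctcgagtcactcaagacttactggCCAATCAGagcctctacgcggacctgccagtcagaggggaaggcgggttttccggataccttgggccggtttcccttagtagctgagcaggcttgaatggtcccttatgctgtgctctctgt
Zfp961: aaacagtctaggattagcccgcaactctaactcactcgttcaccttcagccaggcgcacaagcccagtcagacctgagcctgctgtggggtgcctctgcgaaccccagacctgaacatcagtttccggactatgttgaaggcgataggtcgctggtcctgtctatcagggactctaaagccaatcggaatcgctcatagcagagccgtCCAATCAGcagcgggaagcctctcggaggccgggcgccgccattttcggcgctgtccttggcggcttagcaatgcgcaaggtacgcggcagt
Zfp950: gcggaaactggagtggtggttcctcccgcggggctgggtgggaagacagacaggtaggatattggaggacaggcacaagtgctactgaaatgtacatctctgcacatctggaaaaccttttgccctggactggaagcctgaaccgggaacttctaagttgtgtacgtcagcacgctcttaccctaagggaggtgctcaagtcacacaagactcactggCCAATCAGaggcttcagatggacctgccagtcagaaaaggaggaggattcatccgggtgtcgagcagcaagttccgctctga

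The run began 72 bases before the start site in Zfp932, 42 in Zfp961 and 32 in Zfp950. The second run, CACGTGACCGGAACCG, stood in 4 windows of the chromosome 17 cluster (12.9% of the 31), those of Zfp942, Zfp943, Zfp944 and Zfp946, against 5 of all windows (0.0152%). The starts of Zfp942, on the minus strand, and Zfp943, on the plus strand, lie 88 bases apart, so both windows hold the same copy. Capitals mark the run in Zfp942 (chr17:21962415-21962714, minus strand), Zfp944 (chr17:22361351-22361650, minus strand) and Zfp946 (chr17:22423952-22424251, plus strand).
Zfp942: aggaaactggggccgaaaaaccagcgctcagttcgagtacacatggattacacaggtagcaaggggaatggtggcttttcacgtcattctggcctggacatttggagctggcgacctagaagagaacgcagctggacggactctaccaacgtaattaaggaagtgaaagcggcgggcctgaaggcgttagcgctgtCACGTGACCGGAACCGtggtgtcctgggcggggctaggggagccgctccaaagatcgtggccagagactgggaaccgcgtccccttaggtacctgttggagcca
Zfp944: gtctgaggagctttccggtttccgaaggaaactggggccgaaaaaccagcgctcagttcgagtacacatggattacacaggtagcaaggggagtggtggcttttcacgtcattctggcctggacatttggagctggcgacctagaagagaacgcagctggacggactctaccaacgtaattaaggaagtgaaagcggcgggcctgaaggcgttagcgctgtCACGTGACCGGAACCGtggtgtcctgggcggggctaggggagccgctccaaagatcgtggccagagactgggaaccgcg
Zfp946: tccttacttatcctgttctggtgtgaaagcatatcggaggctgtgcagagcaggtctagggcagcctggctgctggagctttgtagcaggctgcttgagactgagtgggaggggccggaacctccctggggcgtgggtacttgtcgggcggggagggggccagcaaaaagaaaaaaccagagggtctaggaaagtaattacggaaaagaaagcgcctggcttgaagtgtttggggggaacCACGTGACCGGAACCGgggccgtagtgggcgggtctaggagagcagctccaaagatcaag

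The Zfp942 and Zfp944 windows share an unbroken stretch of 207 bases, although Zfp947 and other genes lie between them. The window of Zfp949 (chr9:88547770-88548069, plus strand), the gene with the largest strain difference below, and that of Zfp69 (chr4:120951652-120951951, minus strand) are shown to set them against these sets. Zfp949 held neither run, no GC box (GGGCGG), no CCAAT, no TATAAA and no CCGGAAG on either strand, and 6 CpG dinucleotides. In Zfp69, which held 32 CpG dinucleotides, capitals mark GGGCGG and CCGGAAG on either strand, and no match overlaps another, although 3 adjoin.
Zfp949: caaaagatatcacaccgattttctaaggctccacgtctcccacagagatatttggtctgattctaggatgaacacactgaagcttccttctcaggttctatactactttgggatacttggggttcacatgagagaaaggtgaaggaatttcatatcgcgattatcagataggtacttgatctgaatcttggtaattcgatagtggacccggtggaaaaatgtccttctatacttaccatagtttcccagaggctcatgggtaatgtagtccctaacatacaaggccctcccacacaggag
Zfp69: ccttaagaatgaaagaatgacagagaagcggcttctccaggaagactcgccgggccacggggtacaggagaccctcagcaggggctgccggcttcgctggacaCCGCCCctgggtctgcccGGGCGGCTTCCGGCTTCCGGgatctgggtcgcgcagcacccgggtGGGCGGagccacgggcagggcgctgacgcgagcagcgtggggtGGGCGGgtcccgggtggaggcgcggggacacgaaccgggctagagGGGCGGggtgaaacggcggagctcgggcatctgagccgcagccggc

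Over the 31 windows the median was 9 CpG dinucleotides, against 7 over all windows. GGGCGG stood in 35.5% of the 31 and 35.7% of all windows, CCGGAAG in 22.6% and 8.86%, CCAAT in 64.5% and 37.4%, and TATAAA in 0 of the 31 and 13.6% of all windows.

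The deposited gene counts summed to between 31.94 M and 45.85 M per library . Markers of granulosa cells, the hormone-producing cells around the oocyte, were high in every strain, with summed levels of 2040 to 3510 counts-per-million (CPM) in NZO/HlLtJ, 1220 to 4520 in CAST/EiJ and 1830 to 5260 in C57BL/6J. There were 2 libraries that stood apart by oviduct RNA. CAST/EiJ 10% fat replicate 2 reached 5210 CPM over 9 oviduct epithelium markers and 2020 CPM over 8 adipocyte markers, against CAST/EiJ medians of 46.8 and 160, and C57BL/6J 44% fat replicate 1 reached 244 CPM over the oviduct markers, against a C57BL/6J median of 11.9. Averaged over diets, 7 of 12 oocyte markers rose against C57BL/6J in NZO/HlLtJ (11.6% of all genes) and 7 of 12 in CAST/EiJ (23.2%). Of 7 macrophage markers 5 fell in both (12.3% and 23.6% of all genes). On 44% fat 0 oocyte markers were called in either, against 2 and 7 on 10% fat. On 44% fat 3 macrophage markers fell in NZO/HlLtJ and 1 in CAST/EiJ. Of all genes, 12.6% in NZO/HlLtJ and 29.5% in CAST/EiJ were called against C57BL/6J in either direction on 44% fat. On 10% fat these shares were 10% and 38%. The oocyte score (median log2 CPM of the markers, each relative to its median over libraries) was lowest, at -1.682, in C57BL/6J 10% fat replicate 1. Of 8 adipocyte markers 7 were higher in CAST/EiJ than in C57BL/6J (median log2 3.78) and 7 lower in NZO/HlLtJ than in CAST/EiJ (-4.05). Of 9 oviduct markers 3 were higher in CAST/EiJ than in C57BL/6J and 5 lower in NZO/HlLtJ than in CAST/EiJ. For both lists the shares of all genes were 23.2% and 24.8%, in that order. The part of these cell types in the strain differences below was not tested. Of the adipocyte markers Retn, Lep, Cfd, Adipoq and Cidec were at 0 in at least 1 library. In whole ovaries, a change in the number of cells of a type and in RNA per cell cannot be told apart.

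The 34 genes covered a wide range of levels. Per kilobase of exon, Zfp949 averaged 17.6 CPM over all libraries, Zfp932 9.86, Zfp950 9.45 and Zfp948 8.39, while Zfp941 averaged 0.388 and Zfp936 0.124. Without correction for length, Zfp950, Zfp949 and Zfp945 had the highest means, at 100.3, 72.3 and 46.6 CPM, and Zfp936, Zfp941 and Zfp69 the lowest, at 0.406, 1.83 and 3.25 CPM. Zfp936 rested on 5 to 29 reads per library and is the least certain of all.

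Many of the 34 genes differed between strains, and none was called between diets. Averaged over both diets, 16 of the 34 differed between CAST/EiJ and C57BL/6J at an adjusted p under 0.05 (edgeR quasi-likelihood test, Benjamini-Hochberg adjustment over all genes tested), 13 higher and 3 lower in CAST/EiJ (23.2% and 23.6% of all genes). That is 47.1% of the genes, against 46.8% of all genes tested. Between NZO/HlLtJ and C57BL/6J 11 differed (32.4%, against 23.9% of all genes), 5 higher and 6 lower in NZO/HlLtJ (11.6% and 12.3% of all genes). Between NZO/HlLtJ and CAST/EiJ 19 differed (55.9%, against 48.1% of all genes), 7 higher and 12 lower in NZO/HlLtJ (23.4% and 24.8% of all genes). The shares were close to or somewhat above those of all genes, and 302 other numbered Zfp genes gave 47.7%, 23.5% and 44.0% in the same 3 comparisons. Each strain enters 2 of the comparisons, so they share libraries.

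Most of these differences were small. A change of at least 2-fold was called for 1 gene in CAST/EiJ against C57BL/6J (Zfp934, background 18.4%), for 2 in NZO/HlLtJ against C57BL/6J (Zfp949 and Zfp936, background 7.58%) and for 4 in NZO/HlLtJ against CAST/EiJ (Zfp949, Zfp934, Zfp932 and Zfp936, background 18.5%). Across the 34 genes the median log2 change was 0.07 in CAST/EiJ against C57BL/6J, 0.03 in NZO/HlLtJ against C57BL/6J and -0.10 in NZO/HlLtJ against CAST/EiJ, with 0.01, -0.00065 and -0.02 over all genes. The libraries of both strains did not overlap for 6 genes in CAST/EiJ against C57BL/6J (15.9% of all genes), 2 in NZO/HlLtJ against C57BL/6J (7.79%) and 7 in NZO/HlLtJ against CAST/EiJ (16.8%). At least 1 of the 3 strain differences was called for 26 of the 34 (76.5%, against 64.7% of all genes). With the leading digits of the library identifier as a term the counts were 14, 8 and 18, in the same order of comparisons. Without the 2 libraries rich in oviduct RNA they were 16, 11 and 22.

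**Figure D1:**
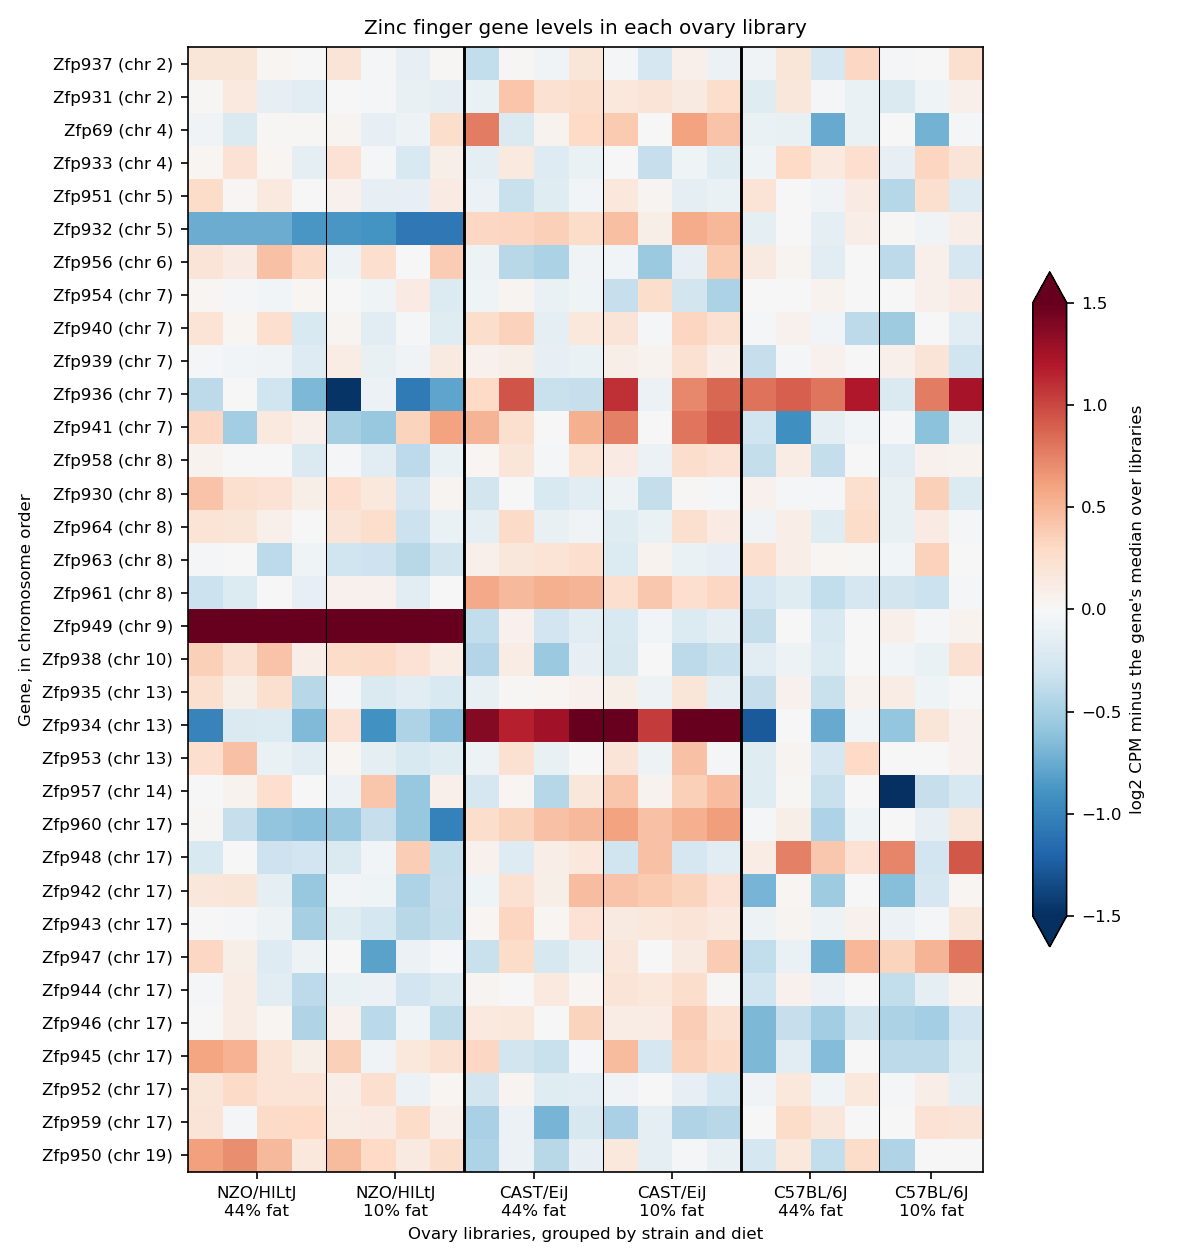
Heat map of the 34 genes (rows, in chromosome order) in the 23 libraries (columns, grouped by strain and diet). Colour is log2 CPM minus the gene's median over all libraries, limited to 1.5 in either direction; the NZO/HlLtJ block stands out for Zfp949 and the CAST/EiJ block for Zfp934, while columns of the 2 diets within a strain look alike for most genes.

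**Figure D2:**
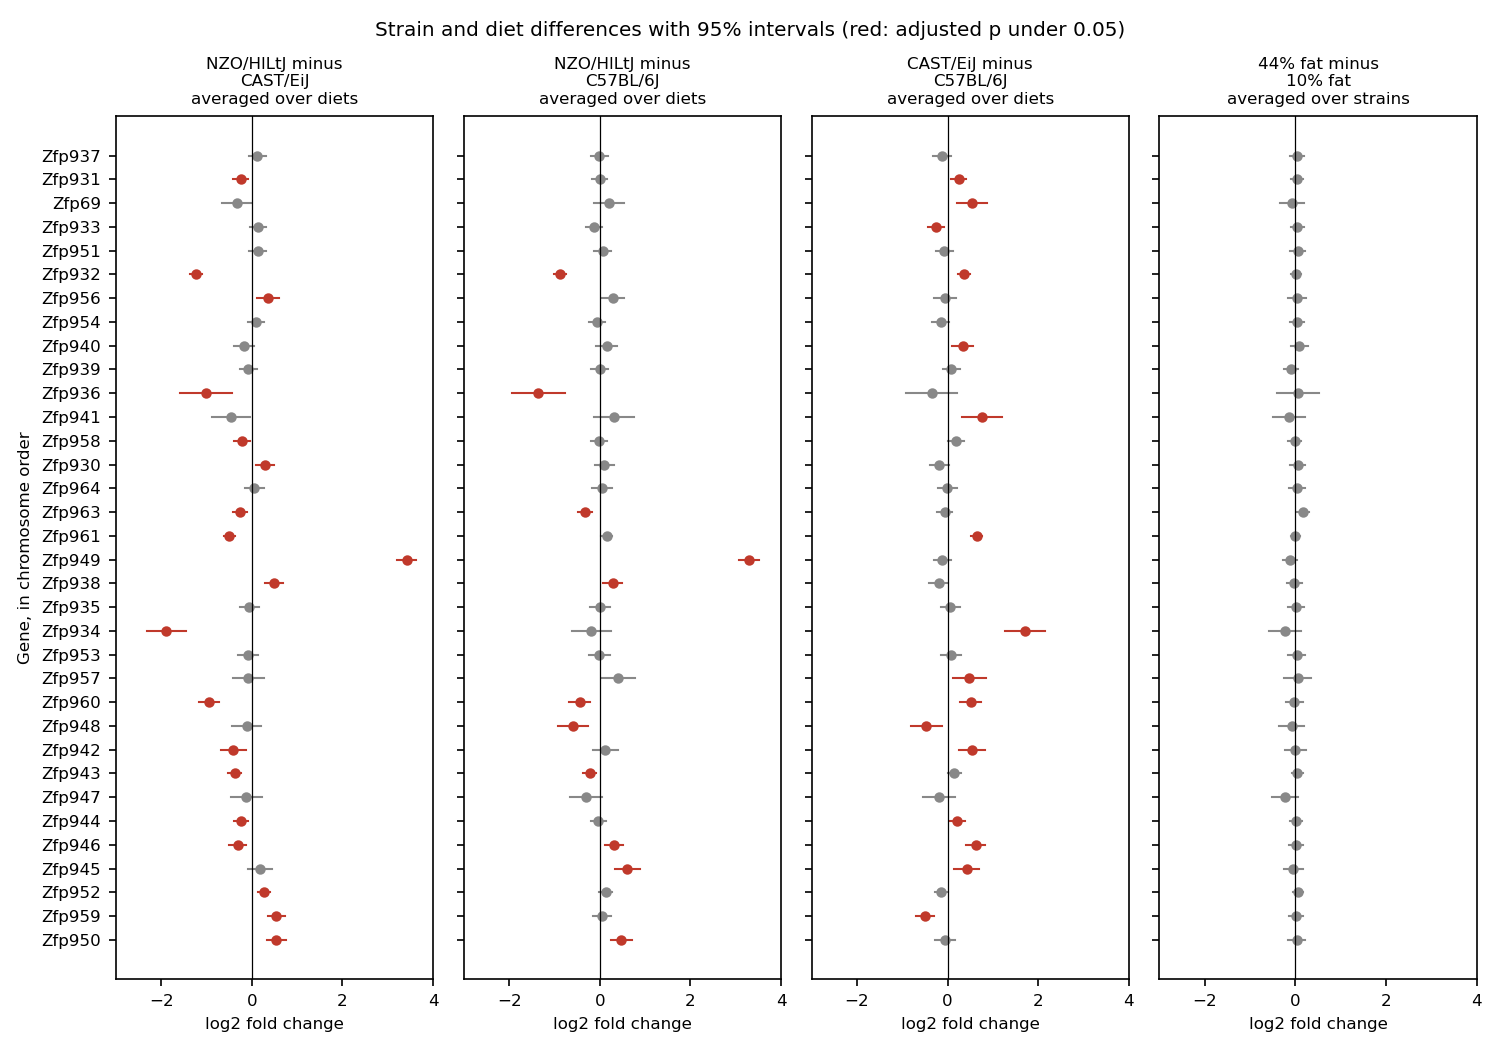
Log2 fold change of each of the 34 genes with its 95% interval, for the 3 strain differences averaged over diets and for 44% against 10% fat averaged over strains. Red marks an adjusted p under 0.05: 19 genes for NZO/HlLtJ minus CAST/EiJ, 11 for NZO/HlLtJ minus C57BL/6J, 16 for CAST/EiJ minus C57BL/6J and 0 for diet.

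Zfp949 (ENSMUSG00000032425), on chromosome 9 (88548020 to 88571061, plus strand), showed the largest difference of the 34. Its coding sequence gave 11 zinc finger matches. NZO/HlLtJ ovaries held 167, 162, 156 and 188 CPM on 44% fat and 161, 162, 249.7 and 162 CPM on 10% fat. CAST/EiJ ovaries held 14.3, 19.4, 15.2 and 16.5 CPM on 44% fat and 15.8, 18.0, 15.99 and 16.8 CPM on 10% fat. C57BL/6J ovaries held 14.4, 18.4, 15.8 and 18.5 CPM on 44% fat and 19.5, 18.3 and 19.2 CPM on 10% fat. Every NZO/HlLtJ library was far above every library of the other strains, which overlapped each other. The log2 change was 3.30 ± 0.10 (SE) in NZO/HlLtJ against C57BL/6J, or 9.84-fold (adjusted p = 2.33e-15, edgeR), and 3.41 ± 0.10 against CAST/EiJ, or 10.6-fold (adjusted p = 1.08e-16). CAST/EiJ against C57BL/6J gave -0.11 ± 0.09 (adjusted p = 0.339).

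The Zfp949 difference was as large on either diet. NZO/HlLtJ against C57BL/6J gave a log2 change of 3.33 ± 0.14 on 44% fat and 3.27 ± 0.15 on 10% fat, and these estimates share no library. Without the NZO/HlLtJ 10% fat library at 249.7 CPM the averaged change was 3.21. Strain carried 98.9% of the variance of Zfp949 in log2 CPM, diet 0.139% and the spread within groups 0.952%. No 100-base stretch of its annotated transcripts occurs in those of another gene, and copies in the NZO/HlLtJ genome were not examined. By the same test, 21 other genes within 0.5 Mb (distances between midpoints) were compared between NZO/HlLtJ and C57BL/6J. In NZO/HlLtJ 2 were higher and 5 lower (11.6% and 12.3% of all genes). The RNA-binding protein gene Syncrip, at -94.7 kb, gave a log2 change of 0.13 (adjusted p = 0.261), and the RNA host gene Snhg5, at -37.6 kb, gave -0.29 (adjusted p = 0.106). The transcript 9430037G07Rik, at 37.9 kb, fell by 5.46 (adjusted p = 2.64e-09), and Gm10163, at -168.5 kb, was called higher in both NZO/HlLtJ and CAST/EiJ than in C57BL/6J. These neighbours were picked after their values were seen.

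Zfp934 (ENSMUSG00000074865) stood out in CAST/EiJ. It lies on chromosome 13 (62517500 to 62520544, minus strand) beside Zfp935. NZO/HlLtJ ovaries held 1.52, 2.63, 2.64 and 1.93 CPM on 44% fat and 3.54, 1.63, 2.21 and 1.96 CPM on 10% fat. CAST/EiJ ovaries held 7.91, 6.83, 7.26 and 8.94 CPM on 44% fat and 10.8, 6.30, 8.96 and 9.99 CPM on 10% fat. C57BL/6J ovaries held 1.27, 3.04, 1.80 and 2.97 CPM on 44% fat and 2.03, 3.46 and 3.18 CPM on 10% fat. The lowest CAST/EiJ library was above the highest of both other strains, and these overlapped each other. Zfp934 was 3.26-fold higher in CAST/EiJ than in C57BL/6J (log2 1.71 ± 0.22, adjusted p = 1.83e-06, edgeR) and lower in NZO/HlLtJ than in CAST/EiJ (log2 -1.89 ± 0.20, adjusted p = 2.33e-07). NZO/HlLtJ against C57BL/6J gave -0.18 ± 0.21 (adjusted p = 0.574).

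Zfp934 shares 9.67% of its transcript stretches with other genes, chiefly Zfp808, which moved the same way: its mean was 14.1 CPM in NZO/HlLtJ and 24.2 in CAST/EiJ, against 12.3 in C57BL/6J (log2 0.98 in CAST/EiJ against C57BL/6J, adjusted p = 5.59e-06). The part of shared reads in the Zfp934 difference was not tested. On the authors' variance-stabilised scale, which compresses low genes, its change was 0.94 in CAST/EiJ against C57BL/6J and -1.02 in NZO/HlLtJ against CAST/EiJ. Its neighbour Zfp935 was called in none of the 3 strain differences averaged over diets, but 99.3% of its stretches occur in other genes, so its level is uncertain.

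Zfp932 (ENSMUSG00000066613), the retrovirus repressor, was lowest in NZO/HlLtJ. It lies on chromosome 5 (109996521 to 110010411, plus strand) and gave 15 zinc finger matches. NZO/HlLtJ ovaries held 20.5, 20.6, 20.6 and 18.8 CPM on 44% fat and 18.7, 18.4, 16.4 and 16.3 CPM on 10% fat. CAST/EiJ ovaries held 42.6, 43.1, 43.8 and 41.5 CPM on 44% fat and 46.8, 36.6, 50.4 and 48.4 CPM on 10% fat. C57BL/6J ovaries held 31.3, 34.3, 31.2 and 36.8 CPM on 44% fat and 34.7, 33.2 and 36.9 CPM on 10% fat. Every NZO/HlLtJ library was below every other library, while CAST/EiJ and C57BL/6J met only at the CAST/EiJ library at 36.6 CPM, which is the one rich in oviduct RNA. The log2 change was -0.87 ± 0.06 in NZO/HlLtJ against C57BL/6J (adjusted p = 2.36e-09, edgeR), -1.24 ± 0.06 in NZO/HlLtJ against CAST/EiJ (adjusted p = 1.31e-12) and 0.37 ± 0.06 in CAST/EiJ against C57BL/6J (adjusted p = 6.63e-05). The order NZO/HlLtJ, C57BL/6J, CAST/EiJ from low to high was called at each step on each diet.

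Gm15446, the relative of Zfp932, averaged 15.7 CPM in NZO/HlLtJ and 29.6 CPM in CAST/EiJ, against 16.3 CPM in C57BL/6J. Gm15446 was higher in CAST/EiJ than in C57BL/6J (log2 0.86, adjusted p = 1.54e-08, edgeR), and NZO/HlLtJ against C57BL/6J gave -0.06 (adjusted p = 0.615). Of the 100-base transcript stretches of Zfp932, 17.7% occur in Gm15446, so some reads could be split between them.

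**Figure D3:**
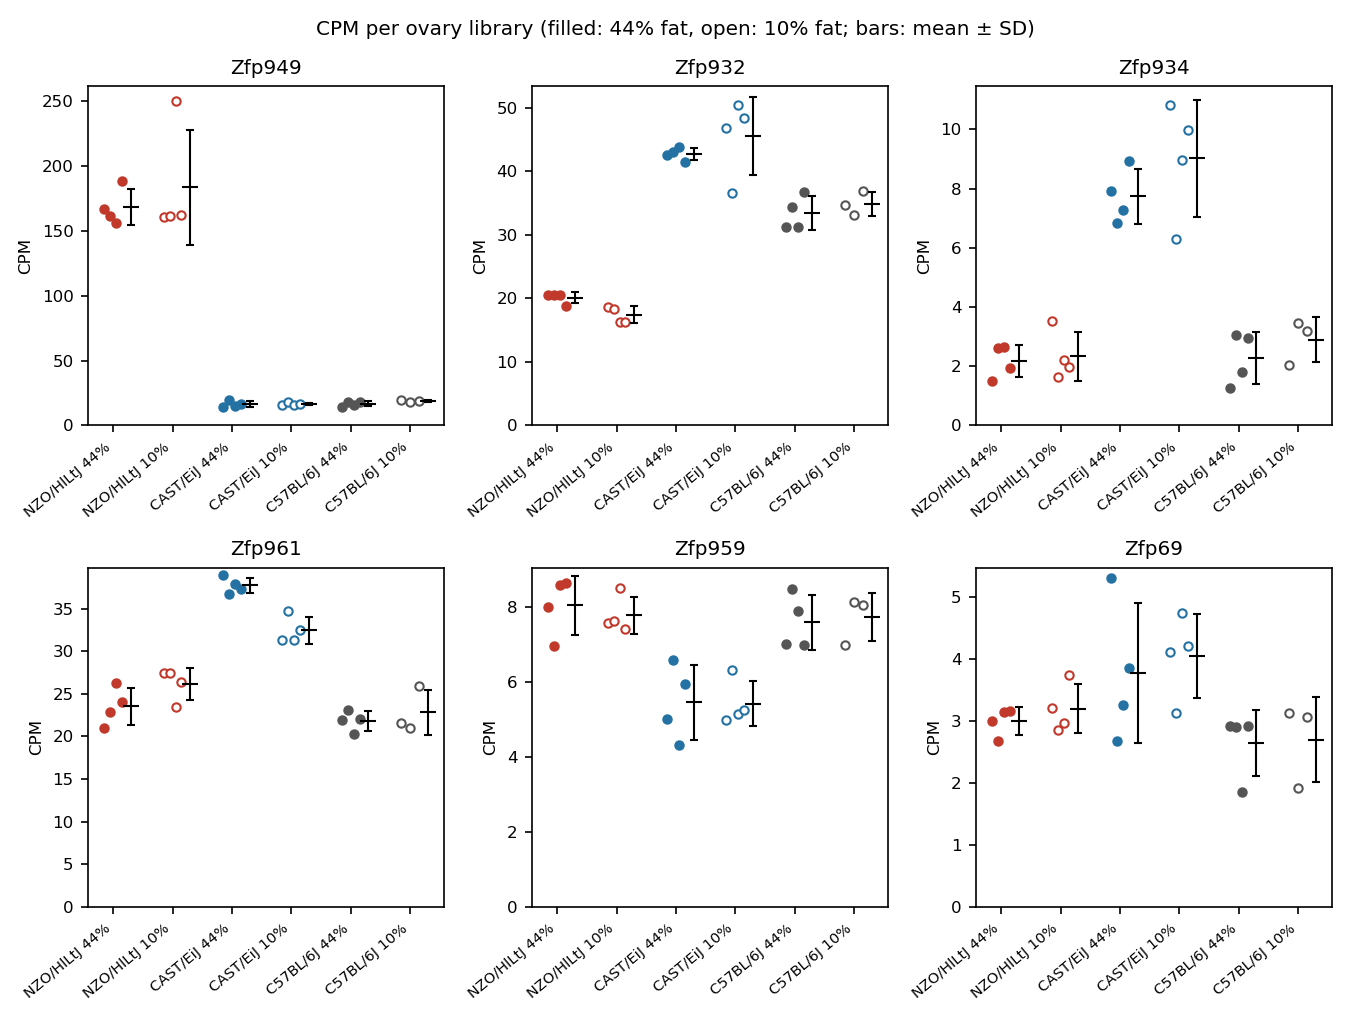
CPM of Zfp949, Zfp932, Zfp934, Zfp961, Zfp959 and Zfp69 in each library by strain and diet, with filled points for 44% fat, open points for 10% fat and bars for the mean ± SD of a group. Zfp949 is high in all 8 NZO/HlLtJ libraries, Zfp934 and Zfp961 in all 8 CAST/EiJ libraries, and Zfp932 is low in NZO/HlLtJ.

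Zfp961, on chromosome 8 (71951038 to 71993408, plus strand), was also highest in CAST/EiJ. Zfp961 overlaps Cyp4f18 on the opposite strand and shares 0.384% of its 100-base transcript stretches with it. No strand setting is given, so some reads could be counted for either gene. NZO/HlLtJ ovaries held 21.0, 22.8, 26.2 and 24.1 CPM on 44% fat and 27.4, 27.5, 23.4 and 26.4 CPM on 10% fat. CAST/EiJ ovaries held 38.9, 36.7, 37.9 and 37.3 CPM on 44% fat and 31.3, 34.7, 31.3 and 32.5 CPM on 10% fat. C57BL/6J ovaries held 21.9, 23.1, 20.3 and 22.0 CPM on 44% fat and 21.6, 21.0 and 25.9 CPM on 10% fat. No CAST/EiJ library overlapped with another strain. The log2 change was 0.65 ± 0.06 in CAST/EiJ against C57BL/6J (adjusted p = 2.01e-08, edgeR) and -0.49 ± 0.06 in NZO/HlLtJ against CAST/EiJ (adjusted p = 4.32e-07). NZO/HlLtJ against C57BL/6J gave 0.15 ± 0.06 (adjusted p = 0.0627).

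Only 2 more genes separated CAST/EiJ from both other strains without overlap in these libraries, Zfp960 and Zfp959, both on chromosome 17 outside the cluster. Zfp960 had a lowest, median and highest value of 3.98, 5.41 and 8.09 CPM in NZO/HlLtJ, 9.66, 11.0 and 12.4 CPM in CAST/EiJ, and 5.84, 7.83 and 8.99 CPM in C57BL/6J. CAST/EiJ was above both other strains, which overlapped (log2 0.51 in CAST/EiJ against C57BL/6J, adjusted p = 0.000881, and -0.44 in NZO/HlLtJ against C57BL/6J, adjusted p = 0.00681, edgeR). However, 68.3% of the stretches of Zfp960 occur in Zfp97, and Zfp97 fell where Zfp960 rose (log2 -0.66 in CAST/EiJ against C57BL/6J, adjusted p = 4.24e-05). The sum of both was 16.4 ± 1.70 CPM in NZO/HlLtJ and 18.5 ± 1.53 CPM in CAST/EiJ, against 19.3 ± 2.29 CPM in C57BL/6J (SD, n = 8, 8 and 7), and all 3 ranges overlapped. A difference in Zfp960 and a different split of reads between the pair cannot be told apart.

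**Figure D4:**
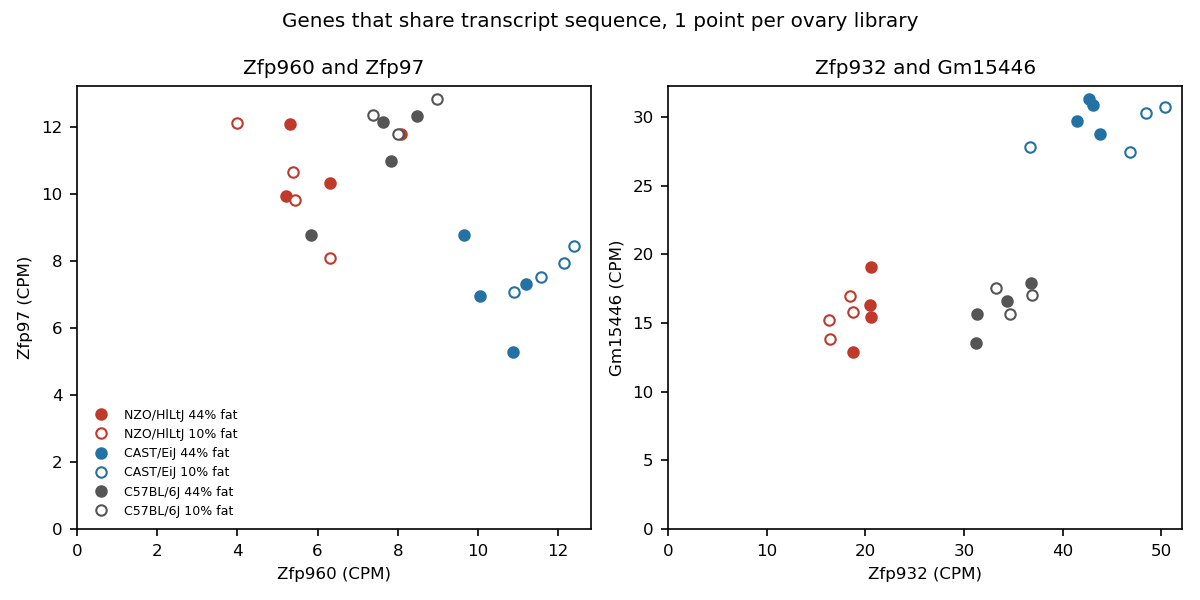
CPM of Zfp960 against its near copy Zfp97 and of Zfp932 against its relative Gm15446, 1 point per library, coloured by strain. CAST/EiJ libraries lie at higher Zfp960 and lower Zfp97 than C57BL/6J libraries, and at higher Gm15446, with Zfp932 higher too in all but 1 of them.

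Zfp959 was the reverse case, low in CAST/EiJ. It shares 4.47% of its transcript stretches with other genes, chiefly Zfp119a, so some of its reads could be counted for those. Its lowest, median and highest values were 6.95, 7.81 and 8.64 CPM in NZO/HlLtJ, 4.32, 5.20 and 6.58 CPM in CAST/EiJ, and 6.99, 7.91 and 8.48 CPM in C57BL/6J. CAST/EiJ lay below both other strains, which overlapped over nearly all of their range. The log2 change was -0.49 ± 0.10 in CAST/EiJ against C57BL/6J (adjusted p = 0.00028, edgeR) and 0.54 ± 0.09 in NZO/HlLtJ against CAST/EiJ (adjusted p = 7.23e-05). NZO/HlLtJ against C57BL/6J gave 0.05 ± 0.10 (adjusted p = 0.772). In all, 3 genes were higher in CAST/EiJ than in both other strains without overlap (background 4.73%), 1 was lower (4.71%), 1 was higher in NZO/HlLtJ (1.4%), 1 was lower in NZO/HlLtJ (1.04%), and C57BL/6J stood apart from both in 0 genes (1.32% of all genes higher and 1.15% lower).

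The chromosome 17 cluster did not move as a block against C57BL/6J. In CAST/EiJ against C57BL/6J 4 of its 7 genes were higher and 1 was lower (23.2% and 23.6% of all genes). In NZO/HlLtJ against C57BL/6J 2 were higher and 2 lower (11.6% and 12.3% of all genes). In NZO/HlLtJ against CAST/EiJ 0 were higher and 4 lower (23.4% and 24.8% of all genes). Zfp946 had lowest, median and highest values of 14.6, 19.5 and 21.6 CPM in NZO/HlLtJ, 20.1, 22.2 and 25.9 CPM in CAST/EiJ, and 12.5, 14.4 and 16.5 CPM in C57BL/6J. No CAST/EiJ library overlapped with C57BL/6J (log2 0.62 ± 0.10, adjusted p = 2.46e-05, edgeR), whereas NZO/HlLtJ overlapped with both. Zfp945, at the other end from Zfp948, had 43.3, 52.2 and 68.0 CPM in NZO/HlLtJ, 35.6, 49.5 and 62.5 CPM in CAST/EiJ, and 28.1, 34.4 and 45.0 CPM in C57BL/6J. It rose in both against C57BL/6J with overlapping libraries, by a log2 change of 0.61 in NZO/HlLtJ (adjusted p = 0.00194) and 0.42 in CAST/EiJ (adjusted p = 0.0118).

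Zfp948, at the first end of the cluster, went the other way from Zfp945. Its lowest, median and highest values were 15.9, 17.5 and 26.5 CPM in NZO/HlLtJ, 16.6, 19.9 and 27.6 CPM in CAST/EiJ, and 16.7, 27.0 and 38.9 CPM in C57BL/6J. All 3 ranges overlapped, and the log2 change was -0.59 in NZO/HlLtJ against C57BL/6J (adjusted p = 0.0115, edgeR) and -0.47 in CAST/EiJ against C57BL/6J (adjusted p = 0.0215). The C57BL/6J libraries were widely spread, and the CAST/EiJ call was lost in some alternatives, for example at -0.35 (adjusted p = 0.0877) without C57BL/6J 10% fat replicate 3.

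The divergent neighbours Zfp942 and Zfp943 were both lower in NZO/HlLtJ than in CAST/EiJ, by a log2 change of -0.41 (adjusted p = 0.0139) for Zfp942 and -0.38 (adjusted p = 0.000159) for Zfp943. Against C57BL/6J they were unlike. Zfp942 was higher in CAST/EiJ (log2 0.53, adjusted p = 0.00309) and gave 0.13 in NZO/HlLtJ (adjusted p = 0.546), while Zfp943 gave 0.15 in CAST/EiJ (adjusted p = 0.0943) and was lower in NZO/HlLtJ (log2 -0.23, adjusted p = 0.028). Zfp943 had lowest, median and highest values of 16.4, 19.9 and 23.1 CPM in NZO/HlLtJ, 23.7, 25.7 and 28.9 CPM in CAST/EiJ, and 21.8, 22.8 and 26.1 CPM in C57BL/6J, so NZO/HlLtJ lay wholly below CAST/EiJ. Zfp944 followed Zfp942 with smaller changes, 0.22 in CAST/EiJ against C57BL/6J (adjusted p = 0.0315) and -0.24 in NZO/HlLtJ against CAST/EiJ (adjusted p = 0.0124). The first of these calls was lost in 6 of 31 alternatives. Zfp942 shares 1.24% of its transcript stretches with Zfp944, and Zfp944 shares 2.38% with Zfp942. Both had counts that were not whole in 18 libraries, so some reads could be split between them. The part of shared reads in their changes was not tested. Zfp947, in the middle, was called in none of the 3. Among the carriers of the 16-base run, Zfp942, Zfp944 and Zfp946 were higher in CAST/EiJ than in C57BL/6J (23.2% of all genes) and Zfp943 was not called. These carriers are not independent. Zfp942 and Zfp943 hold the same copy of the run, and the Zfp942 and Zfp944 windows share 207 bases. A link between the run and the levels was not tested.

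**Figure D5:**
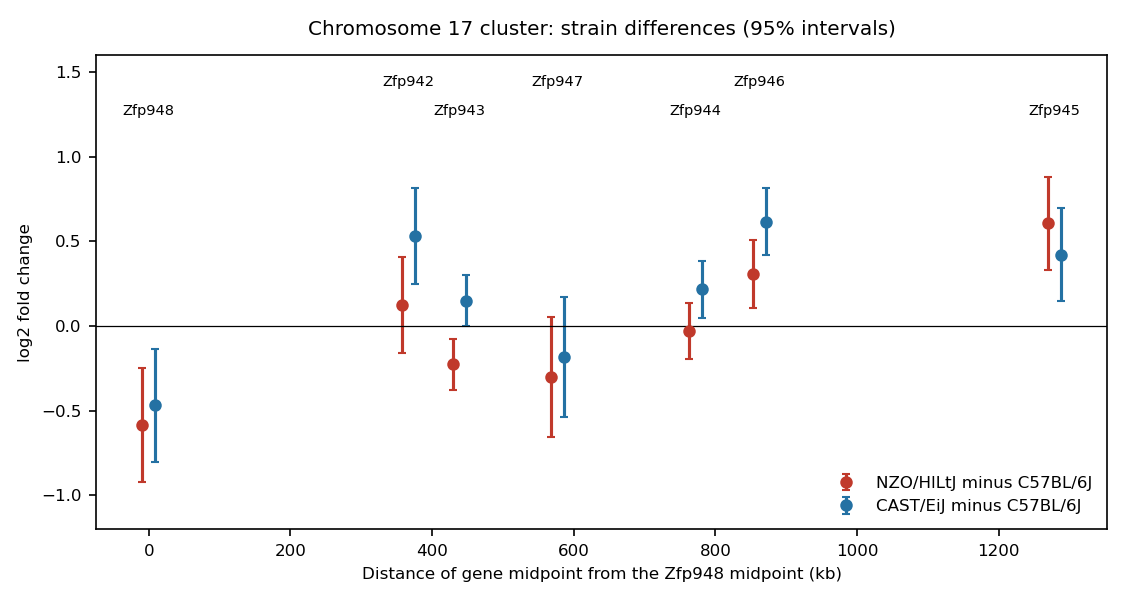
Log2 fold change of the 7 genes of the chromosome 17 cluster against their distance in kilobases from the middle of Zfp948, for NZO/HlLtJ (red) and CAST/EiJ (blue) against C57BL/6J, averaged over diets. Bars are 95% intervals; Zfp948 at the left is below 0 and Zfp945 at the right above 0 in both comparisons with C57BL/6J.

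The chromosome 8 cluster moved little. None of its 3 genes was called in CAST/EiJ against C57BL/6J, and Zfp963 was lower in NZO/HlLtJ than in C57BL/6J (log2 -0.32, adjusted p = 0.00477, edgeR) and than in CAST/EiJ (log2 -0.26, adjusted p = 0.00779). Zfp963 overlaps Gm20422 on the same strand and shares 36.1% of its stretches with it, so its level is uncertain. Zfp930 was higher in NZO/HlLtJ than in CAST/EiJ (log2 0.29, adjusted p = 0.0201), and Zfp964 was called in none of the 3.

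Zfp950, on chromosome 19 (61053840 to 61140840, minus strand), the member with the most reads, was highest in NZO/HlLtJ. Its lowest, median and highest values were 103, 123 and 153 CPM in NZO/HlLtJ, 68.2, 87.0 and 105 CPM in CAST/EiJ, and 68.9, 94.0 and 114 CPM in C57BL/6J. The NZO/HlLtJ range overlapped the top of both others, with a log2 change of 0.48 against C57BL/6J (adjusted p = 0.00274, edgeR) and 0.54 against CAST/EiJ (adjusted p = 0.000224). Zfp938 also rose in NZO/HlLtJ, by 0.48 against CAST/EiJ (adjusted p = 0.000337). Zfp941, on chromosome 7, had 1.12, 1.79 and 2.51 CPM in NZO/HlLtJ, 1.65, 2.38 and 3.15 CPM in CAST/EiJ, and 0.873, 1.49 and 1.64 CPM in C57BL/6J. The lowest CAST/EiJ library, at 1.65 CPM, was just above the highest C57BL/6J library, at 1.64 CPM (log2 0.77 ± 0.21, adjusted p = 0.0054).

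Zfp936, also on chromosome 7 (43114229 to 43192109, plus strand), gave the lowest log2 changes in NZO/HlLtJ against C57BL/6J, but from few reads. Its lowest, median and highest values were 0.115, 0.221 and 0.317 CPM in NZO/HlLtJ, 0.250, 0.455 and 0.680 CPM in CAST/EiJ, and 0.273, 0.558 and 0.749 CPM in C57BL/6J. NZO/HlLtJ was low but overlapped both others, with a log2 change of -1.35 ± 0.28 against C57BL/6J (adjusted p = 0.00127, edgeR) and -1.01 ± 0.27 against CAST/EiJ (adjusted p = 0.00455). On the variance-stabilised scale these were -0.24 and -0.16.

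Zfp69 (ENSMUSG00000064141), on chromosome 4 (120930137 to 120951699, minus strand), was low in every strain. NZO/HlLtJ ovaries held 3.001, 2.68, 3.15 and 3.17 CPM on 44% fat and 3.22, 2.86, 2.97 and 3.74 CPM on 10% fat. CAST/EiJ ovaries held 5.30, 2.68, 3.25 and 3.85 CPM on 44% fat and 4.11, 3.12, 4.74 and 4.21 CPM on 10% fat. C57BL/6J ovaries held 2.92, 2.90, 1.85 and 2.92 CPM on 44% fat and 3.13, 1.91 and 3.06 CPM on 10% fat. All 3 strains overlapped, with the highest libraries in CAST/EiJ. Zfp69 was 1.46-fold higher in CAST/EiJ than in C57BL/6J (log2 0.55 ± 0.16, adjusted p = 0.00765, edgeR). NZO/HlLtJ against C57BL/6J gave 0.21 ± 0.16 (adjusted p = 0.357), and NZO/HlLtJ against CAST/EiJ gave -0.33 ± 0.15 (adjusted p = 0.074). That difference passed the threshold in 4 alternatives: limma voom with library weights (-0.34, adjusted p = 0.0211), without both libraries rich in oviduct RNA (-0.38, adjusted p = 0.0425), without CAST/EiJ 44% fat replicate 2 (-0.40, adjusted p = 0.0338) and without CAST/EiJ 10% fat replicate 2 (-0.38, adjusted p = 0.0404). The counts are per gene, so they do not show which end of the transcript the reads came from.

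Smaller changes were called for 7 more genes in 1 or 2 comparisons. In CAST/EiJ against C57BL/6J, Zfp931 gave a log2 change of 0.25, Zfp940 0.33, Zfp957 0.48 and Zfp933 -0.26. In NZO/HlLtJ against CAST/EiJ, Zfp952 gave 0.27, Zfp956 0.35 and Zfp958 -0.22. Among them Zfp940, Zfp957, Zfp933 and Zfp958 lost their call in at least 1 alternative. Zfp956 overlaps Zfp783 on the same strand, so reads could be counted for either gene. Zfp931 shares 6.91% of its stretches with other genes. In 8 genes no strain difference was called: Zfp937, Zfp951, Zfp954, Zfp939, Zfp964, Zfp935, Zfp953 and Zfp947. Their log2 changes over the 3 comparisons lay between -0.30, for Zfp947 in NZO/HlLtJ against C57BL/6J with a 95% interval of -0.66 to 0.05, and 0.13, for Zfp951 in NZO/HlLtJ against CAST/EiJ. Such intervals do not show that the strains were alike.

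On each diet taken alone, the strain difference had the same sign on 44% and on 10% fat in 26 of the 34 genes for CAST/EiJ against C57BL/6J (76.5%, against 73.9% of all genes), in 27 for NZO/HlLtJ against C57BL/6J (79.4%, against 74%) and in 26 for NZO/HlLtJ against CAST/EiJ (76.5%, as over all genes). Of the genes called in the averages, a choice that all but fixes the sign on both diets, 16 of 16 in CAST/EiJ against C57BL/6J had the same sign on 44% and on 10% fat (97.9% of all genes called), 11 of 11 in NZO/HlLtJ against C57BL/6J (99.9%) and 19 of 19 in NZO/HlLtJ against CAST/EiJ (99%). On a single diet fewer were called. CAST/EiJ against C57BL/6J gave 6 genes on 44% fat (background 29.5%) and 11 on 10% fat (38%), and all 6 were shared. NZO/HlLtJ against C57BL/6J gave 5 on 44% fat (12.6%) and 5 on 10% fat (10%), with 3 shared. NZO/HlLtJ against CAST/EiJ gave 13 on 44% fat (34.5%) and 12 on 10% fat (33.5%), with 8 shared. The estimates on the 2 diets share no library.

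None of the 34 genes passed the threshold between diets, where few or none of all genes did. On 44% against 10% fat, edgeR called 0 in C57BL/6J (0% of all genes), 0 in CAST/EiJ (0.624%), 0 in NZO/HlLtJ (0%) and 0 on average over strains (0%). DESeq2 also called 0 in each of the 4. At an unadjusted p under 0.05 there were 1, 2, 1 and 1 of 34 genes in the same order, against 8.83%, 13.5%, 3.52% and 5.89% of all genes. The averaged diet change lay between -0.23 for Zfp947 and 0.16 for Zfp963 on the log2 scale, and the 95% interval reached a median of 0.169 to either side. That interval lay within 1 log2 unit of 0 for 34 of 34 genes (84.6% of all genes) and within 0.5 for 31 of 34 (63.2%), and the widest, reaching 0.461 to either side, was that of Zfp936. In CAST/EiJ 6 of 7 macrophage markers rose on 44% fat, where 0.624% of all genes were called in either direction.

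Within single strains the intervals were wider. In C57BL/6J the changes on 44% fat lay between -0.66 for Zfp947 (unadjusted p = 0.0146, adjusted p = 0.486, edgeR) and 0.50 for Zfp957. In CAST/EiJ they lay between -0.48 for Zfp936 and 0.27 for Zfp963, and in NZO/HlLtJ between -0.17 for Zfp948 and 0.43 for Zfp936. Libraries of the 2 diets did not overlap for Zfp961 and Zfp963 in CAST/EiJ (5.88% of all genes), for Zfp932 in NZO/HlLtJ (2.96%) and for 0 genes in C57BL/6J (8.08%). Zfp961 averaged 37.7 CPM on 44% fat and 32.5 CPM on 10% fat in CAST/EiJ (log2 0.22 ± 0.08, adjusted p = 0.207), and Zfp963 averaged 10.9 and 9.05 CPM there (log2 0.27 ± 0.11, adjusted p = 0.253). Zfp932 averaged 20.1 CPM on 44% fat and 17.5 CPM on 10% fat in NZO/HlLtJ (log2 0.20 ± 0.09, adjusted p = 1.0).

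The test of whether the diet change itself differed between strains also called 0 of the 34 for CAST/EiJ against C57BL/6J (0.614% of all genes), NZO/HlLtJ against C57BL/6J (0%) and NZO/HlLtJ against CAST/EiJ (0.0149%), with 2, 2 and 3 at an unadjusted p under 0.05 (16%, 3.92% and 11.4% of all genes) and 0 by DESeq2. The smallest p was that of Zfp961, whose diet change was lower by 0.37 log2 units in NZO/HlLtJ than in CAST/EiJ (-0.37 ± 0.11, unadjusted p = 0.00356, adjusted p = 0.244, edgeR). With limma voom and library weights it was -0.48 (adjusted p = 0.0285). For Zfp957 the diet change in CAST/EiJ minus that in C57BL/6J was -0.92 ± 0.35 (adjusted p = 0.196), and for Zfp947 the change in NZO/HlLtJ minus that in C57BL/6J was 0.90 ± 0.34 (adjusted p = 1.0).

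Split into parts, the variance of log2 CPM gave the same picture as a description. The median share over the 34 genes was 43.1% between strains, 6.07% between diets within strains and 51.7% within groups, against 36.7%, 8.04% and 50.4% over all genes. Strain carried over 50% in 12 of 34 genes (35.3%, against 35.4% of all genes), led by Zfp949, Zfp932 at 95%, Zfp961 at 84.6%, Zfp934 at 84.3%, Zfp960 at 79.9% and Zfp959 at 75.6%. Diet had a larger share than strain in 7 of the 34 genes, against 4034 of all 20189 genes, and its highest share among the 34 was 37.1% in Zfp947.

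The partners of KRAB zinc finger proteins in silencing were followed as a list of 32 names, of which 30 could be tested. Averaged over diets, 9 were higher and 2 lower in CAST/EiJ against C57BL/6J (median log2 0.10). In NZO/HlLtJ against C57BL/6J 1 was higher and 1 lower (0.05), and in NZO/HlLtJ against CAST/EiJ 2 were higher and 7 lower (-0.04). The shares called, 36.7%, 6.67% and 30%, were below the 46.8%, 23.9% and 48.1% of all genes. On 44% fat alone 3 were higher and 2 lower in CAST/EiJ against C57BL/6J (median log2 0.05, 29.5% of all genes called). On 10% fat 9 were higher and 2 lower (0.18, 38%). NZO/HlLtJ against C57BL/6J gave 0 on 44% fat (12.6% of all genes) and 0 on 10% fat (10%). NZO/HlLtJ against CAST/EiJ gave 3 higher and 1 lower on 44% fat (34.5%), and 2 and 5 on 10% fat (33.5%). Dnmt1, the maintenance DNA methyltransferase, rose in CAST/EiJ against C57BL/6J (log2 0.45, adjusted p = 0.000208, edgeR), as did Cbx3, the heterochromatin protein HP1 gamma (0.35, adjusted p = 0.000221), and Trim28, the co-repressor itself (0.28, adjusted p = 0.00466). Pphln1, a subunit of the HUSH silencing complex, fell by 0.35 (adjusted p = 1.03e-05). Of 30, diet averaged over strains moved 0, by edgeR (0% of all genes).

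Among 25 characterised zinc finger genes outside the 34, 13 were higher and 5 lower in CAST/EiJ than in C57BL/6J, 8 higher and 3 lower in NZO/HlLtJ than in C57BL/6J, and 6 higher and 9 lower in NZO/HlLtJ than in CAST/EiJ. The shares called were 72%, 44% and 60%, against 46.8%, 23.9% and 48.1% of all genes. The list holds Zfp42, which has no KRAB domain. Zfp809, which silences proviruses of the murine leukaemia type in embryonic cells, was higher in CAST/EiJ (log2 0.98 against C57BL/6J, adjusted p = 5.59e-06, edgeR). Rsl1, which represses sex-limited liver genes, was lower in NZO/HlLtJ (log2 -1.05 against C57BL/6J, adjusted p = 1.5e-07). Diet averaged over strains moved 0 of the 25 by edgeR (0% of all genes).

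The build named in the submitters' processing notes, GRCm38, represents C57BL/6J, and whether reads of the other strains were aligned to it or to their own sequences is not given in the sources used here. A lower count in NZO/HlLtJ or CAST/EiJ and a poorer match of their reads cannot be told apart. Because 5 of the 34 genes share over 10% of their 100-base stretches with other genes, the counts were also taken over the 13 that share under 1% and had whole-number counts in every library. Of these 13, 6 were called in CAST/EiJ against C57BL/6J (46.2%, against 46.8% of all genes), 5 in NZO/HlLtJ against C57BL/6J (38.5%, against 23.9%) and 6 in NZO/HlLtJ against CAST/EiJ (46.2%, against 48.1%), with 4, 4 and 4 of them higher in the strain named first.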

How the data were processed

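Polyadenylated RNA of whole mouse ovaries was sequenced as 100-base read pairs, per the labels' protocols. The deposited table gives estimated counts per gene and library, of which 22.4% are not whole numbers (tolerance 1e-06), and a second deposited table gives the authors' variance-stabilised values on a log2-like scale. The authors' annotation table gives positions in megabases, per the file headers. GRCm38 and DESeq2 are named in the submitters' processing notes, while no aligner, counting tool, strand setting or annotation release is given in the sources used here.

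Estimated counts were rounded, genes with too few reads were removed (edgeR filterByExpr, minimum count 10, minimum total 15), and TMM scaling and edgeR 4.0.16 robust quasi-likelihood tests (R 4.3.3) were used on 6 groups, with Benjamini-Hochberg adjustment over 20189 genes for each of 16 comparisons. CPM are counts-per-million of the scaled library. Totals of 31.94 M to 45.85 M counts limit precision only for the lowest genes. No 2 libraries of a group agreed within sampling noise. Alternatives were DESeq2 1.42.0, limma 3.58.1 (voom with library weights, and the variance-stabilised values), RLE scaling, no filter, only the strains compared, the leading digits of the library identifier as a term, and leaving out libraries. Promoter windows are RefSeq's on GRCm38.p6. The edgeR script was tested on simulated data.

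The genes and lists were chosen with earlier results of these data known. Genes are named where they passed the test without overlap between strains, had 1 of the 3 smallest p-values in a diet comparison, or were among the 3 highest or lowest levels, and Zfp69 always. Cluster neighbours are named too, and other called genes were named after their values were seen. Since no label ties a library to an animal of its own, the p-values describe how far libraries spread, and part of that spread may be technical. Markers of granulosa, theca, luteal, oocyte, macrophage, oviduct and fat cells were also counted, against C57BL/6J and averaged over diets. Of 7 theca markers 4 rose and 1 fell in CAST/EiJ, and 1 rose and 1 fell in NZO/HlLtJ. Of 8 luteal markers 4 fell in CAST/EiJ and 3 in NZO/HlLtJ. Of 10 granulosa markers 1 rose and 1 fell in CAST/EiJ and 0 were called in NZO/HlLtJ. Of all genes, 23.2% were higher and 23.6% lower in CAST/EiJ, and 11.6% and 12.3% in NZO/HlLtJ.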

Additional observations from a re-analysis of the deposited data

Results flagged for a closer look

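Of 85 groups of 4 libraries tested for a single library far from the others, 5 held one, and chance alone flags about 5% of groups. Zfp949 was at 250 CPM in NZO/HlLtJ 10% fat replicate 3, with the other 3 between 161 and 162. Zfp932 was at 18.8 CPM in NZO/HlLtJ 44% fat replicate 4, against 20.5 to 20.6 in the others. Zfp943 was at 16.4 CPM in the same library, against 22.0 to 23.1. Zfp947 was at 1.90 CPM in NZO/HlLtJ 10% fat replicate 2, against 3.13 to 3.33. Zfp69 was at 1.85 CPM in C57BL/6J 44% fat replicate 3, against 2.90 to 2.92.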

How the results depend on the processing

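Over 31 alternatives, 23 of which leave out a single library, 37 of the 46 calls of a gene in a strain difference averaged over diets held in all, 9 were lost in at least 1 and 0 changed sign. The 9 were Zfp933, Zfp940, Zfp957, Zfp948 and Zfp944 in CAST/EiJ against C57BL/6J, Zfp938, Zfp943 and Zfp946 in NZO/HlLtJ against C57BL/6J, and Zfp958 in NZO/HlLtJ against CAST/EiJ. The cause was not tested.

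With 1 library left out, the number of genes called ranged from 12 to 19 (average), 5 to 8 (44% fat) and 7 to 14 (10% fat) in CAST/EiJ against C57BL/6J, the 7 without C57BL/6J 10% fat replicate 1. In NZO/HlLtJ against C57BL/6J it ranged from 9 to 12 (average), 3 to 6 (44% fat) and 3 to 6 (10% fat). It was 3 on 44% fat without C57BL/6J replicate 1, C57BL/6J replicate 3 or NZO/HlLtJ replicate 1, and 3 on 10% fat without C57BL/6J replicate 3 or NZO/HlLtJ replicate 4. In NZO/HlLtJ against CAST/EiJ it ranged from 18 to 22 (average), 10 to 14 (44% fat) and 10 to 15 (10% fat). It was 0 to 0 for the 4 diet comparisons and the 3 tests of diet by strain. In NZO/HlLtJ against C57BL/6J, limma voom with library weights called 8 on 44% fat and 11 on 10% fat, and the identifier digits as a term left 3 on 44% fat. Limma voom called 1 gene, Zfp961, in the diet by strain tests of CAST/EiJ against C57BL/6J (0.38) and NZO/HlLtJ against CAST/EiJ (-0.48). No paired analysis was possible because the replicate numbers were given in deposit order and pair nothing. Clusters were the same with a limit of 2 Mb. Depth limits Zfp936, at 5 to 29 reads per library, most.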
